A study of Mus musculus with 8 samples.

Results

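Transcripts of 9 genes used mainly by B cells were followed in sorted Ly-6C-high monocytes from mouse spleen and blood. The genes were Cd79a, Cd79b, Ms4a1, Blk, Cd22, Cd72, Blnk, Pou2af1 and Ebf1. Every array probe whose gene name in the scanner files was one of these was taken, which gave 9 of the 27962 gene names on the array and 13 of its 41174 probes. The study set Ly-6C-high monocytes of the spleen against those of the blood in healthy, untreated C57BL/6 mice. The mice were 4 females of 8 to 12 weeks on a chow diet. There were 4 spleen and 4 blood samples of 1000 cells each, sorted as CD11b-high and Ly-6C-high, low for 1 antibody cocktail (B220, CD90, Ly-6G, NK1.1 and CD49b) and for another (CD11c, I-Ab and F4/80). RNA of an integrity number of at least 8 was amplified from 5 ng and hybridised with Cy3 on 1-colour Agilent arrays.

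B cells recognise antigen through a membrane immunoglobulin whose signal is passed on by a pair of partner chains, Cd79a and Cd79b. Kinases and adaptors inside the cell relay this signal, and surface co-receptors such as Cd22 and Cd72 damp it. Ebf1 sets up the B cell programme early in development, whereas Pou2af1 helps octamer-binding factors to drive immunoglobulin genes and stays in use in antibody-secreting plasma cells. B220, one of the markers that the gate required to be low, is carried by most B cells and is lost by many plasma cells.

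Values are the log2 levels of the table that the authors deposited. A level of 6.8 was taken as background, because at that level at least 99.0% of probes were well above background in the scanner files that matched the table. Of the 104 cells of the table for these 13 probes, 4 were empty, and 17 of the other 100 values lay below 6.8. The values ran between 6.19 and 10.94, and none of the probes was saturated. As a check of the sorted cell, the 11 tested of 13 genes of Ly-6C-high monocytes had sample medians of 12.03 to 12.40 in spleen and 12.23 to 12.46 in blood. Csf1r, the receptor for macrophage colony-stimulating factor, averaged 13.30 in spleen and 13.14 in blood. The scanner files of blood 1, 2 and 3 held other arrays than their columns in the table, and they are described last.

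Where a gene had more than 1 probe, the sequences showed how far the readings were independent. The probes for Cd72 overlap and the probes for Cd22 do not, so both pairs are given 5′ to 3′, with the run shared by the Cd72 probes in capitals. On build mm7 all lie on the minus strand: Cd72 probe 1 at chr4:43464012-43466156, Cd72 probe 2 at chr4:43463984-43464037, Cd22 probe 1 at chr7:27815904-27817228 and Cd22 probe 2 at chr7:27806351-27806410.
Cd72 probe 1: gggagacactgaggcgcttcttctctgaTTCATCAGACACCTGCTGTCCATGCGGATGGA
Cd72 probe 2: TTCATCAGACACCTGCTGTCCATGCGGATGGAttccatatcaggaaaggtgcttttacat
Cd22 probe 1: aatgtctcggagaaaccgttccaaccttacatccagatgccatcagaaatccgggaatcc
Cd22 probe 2: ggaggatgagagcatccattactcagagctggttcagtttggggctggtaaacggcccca
The Cd72 probes share 32 of their 60 bases, so they largely read the same stretch of the transcript. The Cd22 probes are 9493 bases apart on the genome and have no run of more than 6 bases in common. The first probe of each pair spans more of the genome than its own 60 bases, as a probe across a splice junction does.

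The first question was whether the B cell genes differed between spleen and blood monocytes. No difference passed the threshold: limma, fitted over 25471 probes with a Benjamini-Hochberg adjusted p under 0.05, called 0 of the 10 member probes that could be tested. These 10 came from 7 genes, and 7 were higher and 3 lower in spleen, with a median difference of 0.02 on the log2 scale. Over all probes the fit called 0, which is 0% (percent called), while 1419 had an unadjusted p under 0.05, none of them a member. All probes had a median difference of −0.01. The groups overlapped for every one of the 10 tested probes. By comparison, 1.58% of all probes with 8 values had all 4 spleen values above all 4 blood values and 1.31% had them all below. In such bulk samples, fewer B cells and less RNA per B cell cannot be told apart.

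**Figure D1:**
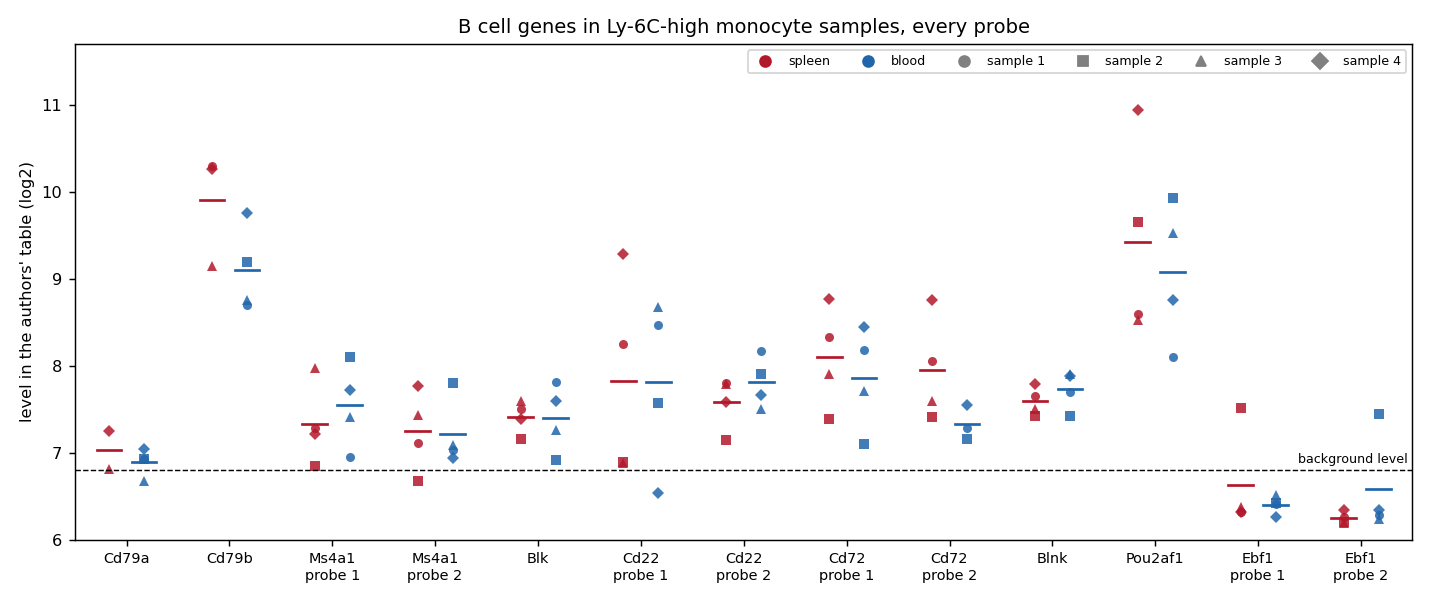
Log2 level of each of the 13 probes in each sample of the authors' table, with spleen to the left of blood, horizontal bars for group means and a dashed line at the background level of 6.8. Spleen and blood values overlap for every probe, and both Ebf1 probes lie below the line in all samples but 1.

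The partner chains of the antigen receptor were unlike each other in how far they could be read. Cd79a (chromosome 7, 21688822 to 21689079 on mm7) had 6.81 and 7.25 in spleen 3 and 4, with no value in spleen 1 and 2, against 6.93, 6.93, 6.68 and 7.04 in the blood samples. All of these lay near the background level, and with 2 spleen values Cd79a was not tested. Cd79b (chromosome 11, 106420507 to 106420566) had 10.30, 9.15 and 10.26 in spleen 1, 3 and 4, with no value in spleen 2, against 8.69, 9.20, 8.75 and 9.76 in blood. Every Cd79b value was well clear of background, and spleen 1 and spleen 4 were above all blood samples while spleen 3 was within their range. Cd79b averaged 9.90 ± 0.65 in spleen (SD, n = 3) and 9.10 ± 0.49 in blood (SD, n = 4). Its difference of 0.80 (SE 0.39) was the greatest among the tested probes and did not pass the threshold (limma, adjusted p = 0.94, 95% interval −0.08 to 1.69).

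Among the surface molecules, Ms4a1 encodes CD20, a membrane protein of mature B cells. Ms4a1 probe 1 (chromosome 19, 10931002 to 10931061) had 7.28, 6.85, 7.97 and 7.22 in spleen and 6.95, 8.10, 7.41 and 7.72 in blood. Probe 2, which lies 400 bases away, had 7.11, 6.68, 7.43 and 7.77 in spleen and 7.03, 7.81, 7.09 and 6.94 in blood. Both probes were highest in blood 2 and lowest in spleen 2. Their differences were −0.21 (SE 0.32) and 0.03 (SE 0.30).

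Cd22, an inhibitory co-receptor that binds sialic acids, gave readings that depended on the probe. Cd22 probe 1 had 8.25, 6.89, 6.89 and 9.28 in spleen and 8.47, 7.57, 8.68 and 6.54 in blood. Probe 2 had 7.80, 7.14, 7.79 and 7.59 in spleen and 8.17, 7.90, 7.50 and 7.66 in blood. Probe 1 had its highest value in spleen 4 and its lowest in blood 4, which probe 2 did not show. The probe 1 value minus the probe 2 value ran from −1.13 to 1.70 over the 8 samples, so a single-sample value of Cd22 rests on 1 probe. The differences between the tissues were 0.01 (SE 0.63) for probe 1 and −0.23 (SE 0.25) for probe 2. With an interval of −1.39 to 1.42, the first cannot exclude a difference of more than 1 log2 unit in either direction.

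Cd72, a C-type lectin that also damps receptor signalling, was read by overlapping probes that agreed on the highest and lowest sample but not on every level. Probe 1 had 8.33, 7.39, 7.91 and 8.77 in spleen and 8.18, 7.1, 7.71 and 8.44 in blood. Probe 2 had 8.06, 7.41, 7.60 and 8.76 in spleen and 7.28, 7.16 and 7.55 in blood 1, 2 and 4, with no value in blood 3. The probe 1 value minus the probe 2 value ran from −0.05 to 0.90 over the 7 samples with both. Blood 1 and blood 4 were the samples that stood well higher by probe 1. Spleen 4 was highest and blood 2 lowest by both probes. Their differences were 0.24 (SE 0.38) and 0.63 (SE 0.35), and neither passed (limma, adjusted p = 0.97 for probe 2).

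The signalling members varied little between samples. Blk, a Src-family kinase of B cells (chromosome 14, 58242375 to 58243512), had 7.50, 7.16, 7.59 and 7.39 in spleen and 7.82, 6.92, 7.26 and 7.59 in blood. Blnk, the adaptor that links the kinase Syk to downstream enzymes (chromosome 19, 40822777 to 40822836), had 7.65, 7.42, 7.50 and 7.79 in spleen and 7.70, 7.43, 7.91 and 7.88 in blood. Both genes stayed within 1 log2 unit over all 8 samples. The differences were 0.01 (SE 0.25) for Blk and −0.14 (SE 0.21) for Blnk, and their intervals of −0.55 to 0.57 and −0.61 to 0.34 stayed inside 1 log2 unit. The same held for 5 of the 10 tested probes.

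The nuclear members were opposites in detection. Pou2af1 (chromosome 9, 51218585 to 51218644) had 8.59, 9.65, 8.53 and 10.94 in spleen and 8.10, 9.93, 9.53 and 8.76 in blood. It was above background in all 8 samples and had the widest span of any member probe, with its highest value in spleen 4. It averaged 9.43 ± 1.13 in spleen and 9.08 ± 0.81 in blood (SD, n = 4 each), a difference of 0.35 (SE 0.58). Ebf1 was above background once by each probe. Ebf1 probe 1 (chromosome 11, 44961616 to 44961675) had 6.32, 7.51, 6.38 and 6.32 in spleen and 6.41, 6.42, 6.52 and 6.26 in blood. Ebf1 probe 2, 355687 bases away, had 6.27, 6.21, 6.19 and 6.34 in spleen and 6.29, 7.45, 6.24 and 6.35 in blood. The value above background was in spleen 2 by probe 1 and in blood 2 by probe 2, so no sample had Ebf1 above background by both probes.

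**Figure D2:**
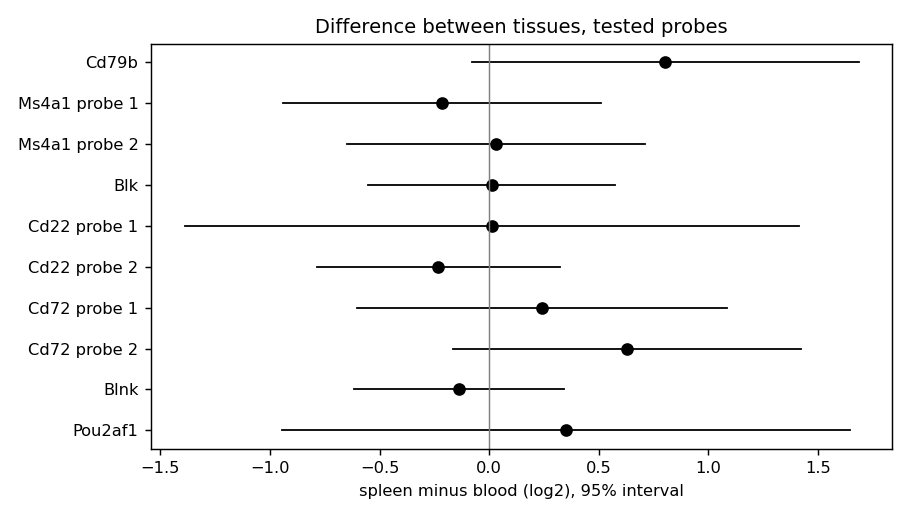
Difference in log2 level, spleen minus blood, for the 10 tested probes, with 95% intervals from limma. Every interval includes 0, and the widest is that of Cd22 probe 1, from −1.39 to 1.42.

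The second question was whether the members stood high together in single samples, as carry-over of whole B cells into a sort would show. For this the excess of a sample was taken as its level minus the median of the other 3 samples of its tissue. It was taken first over the 10 member probes with 8 values and at least 1 of them above background. Both Ebf1 probes met that condition through a single value each, which had to stand out, and Cd72 probe 2 missed it through an empty blood cell. The counts are therefore also given for the 9 tested probes that had all 4 values of the sample's own tissue, a choice made after seeing the data.

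Spleen 4 had the most members high. Over those 9 probes its median excess was 0.66, and over the first 10 it was 0.21. It was the highest spleen sample in 6 of the 9 probes, both overlapping Cd72 probes among them, against 21.6% of all 24025 such probes. By the first count this was 6 of 10, against 21.5% of 27985 probes, although 1 of these 6 was Ebf1 probe 2, all of whose spleen values lie below background. In spleen 4 an excess of at least 1 log2 unit was reached by Cd22 probe 1 (2.39), Pou2af1 (2.34) and Cd72 probe 2 (1.16), or 3 of 9 against 6.02% of all probes. By the first count it was 2 of 10, against 5.84%. The other 6 probes of the 9 did not reach it, with 0.87 for Cd72 probe 1, 0.66 for Ms4a1 probe 2, 0.29 for Blnk, −0.07 for Ms4a1 probe 1, −0.12 for Blk and −0.20 for Cd22 probe 2. Spleen 4 was the highest of all 8 samples for Cd22 probe 1, Cd72 probe 1 and Pou2af1, or 3 of 10 against 10.7% of all probes. Cd79b is in neither count for spleen, since its spleen 2 value is empty. It had 10.30 in spleen 1 and 10.26 in spleen 4.

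In each of the other 7 samples at most 1 of the 9 probes had an excess of 1 log2 unit or more. It was Cd22 probe 1 in spleen 1 (1.36) and blood 3 (1.11), Pou2af1 in spleen 2 (1.06) and blood 2 (1.17), Cd79b in blood 4 (1.0), and none in spleen 3 and blood 1. By the first count spleen 2 and blood 2 had 2 of 10, the second probe in each being the Ebf1 probe with its single value above background there. Over all probes counted that way, the share with such an excess was 7.62%, 7.19%, 7.14% and 5.84% in spleen 1 to 4 and 6.81%, 7.06%, 6.40% and 5.42% in blood 1 to 4. Spleen 2 was at the same time the lowest of the 8 samples for 4 of the 10 probes. Blood 2 was the highest of all 8 for both Ms4a1 probes and for Ebf1 probe 2, or 3 of 10 against 12.5%. Between the 8 tested probes with 8 values, pairs of different genes correlated with a median of 0.05 (26 pairs, −0.68 to 0.70), with 15 of the pairs above 0. The probes of Ms4a1 correlated with each other at 0.57 and those of Cd22 at 0.21. These correlations are descriptions over 8 columns, and how the columns were normalised is not given.

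**Figure D3:**
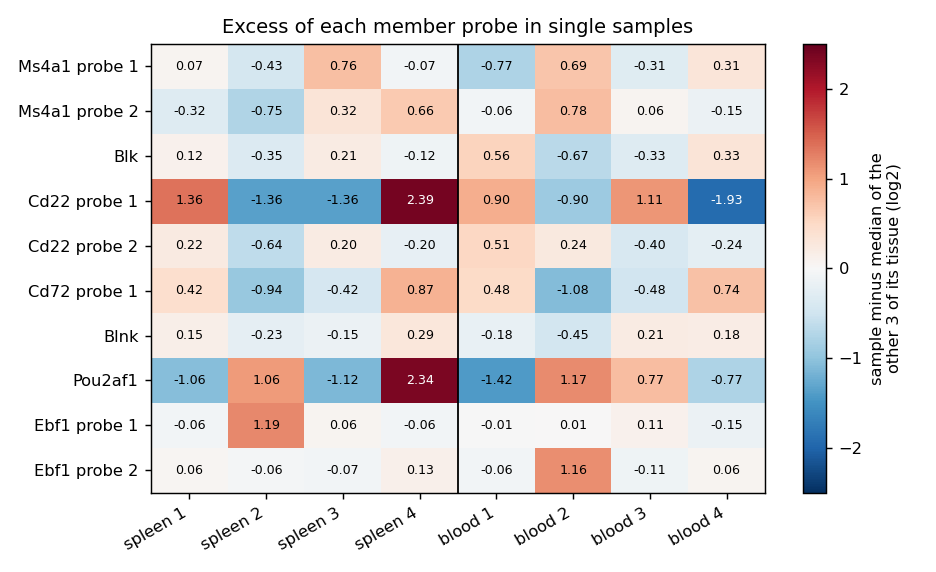
Excess of each of the 10 probes in each sample, as its log2 level minus the median of the other 3 samples of its tissue, with spleen samples left of the line and blood samples right of it. The darkest cells are Cd22 probe 1 (2.39) and Pou2af1 (2.34) in spleen 4, and the other probes of spleen 4 lie between −0.20 and 0.87. Cd72 probe 2 is not drawn, since it has no value in blood 3.

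Among the spleen samples, but not the blood samples, Pou2af1 and a gene of antibody secretion were high in the same ones. Jchain, the joining chain of secreted IgM and IgA, had 6.95, 9.83, 8.28 and 11.26 in spleen, against 6.26, 6.25 and 6.30 in blood 1, 2 and 3 and no value in blood 4. All 4 spleen values were above background and all 3 blood values below it, so only a bound can be given: the spleen mean of 9.08 lay 2.28 log2 units above the background level. This probe could be tested through its 4 spleen values alone, so its fitted difference draws on blood values that carry no order. Jchain was not called, and no verdict on the tissues is drawn from that fit. The second Jchain probe, which was not tested, had 6.49, 7.54, 6.50 and 9.32 in spleen and 6.63, 6.42, 6.37 and 6.41 in blood. By both probes Jchain was highest in spleen 4 and next in spleen 2, the spleen samples with the highest Pou2af1. Blood 2 and blood 3, with Pou2af1 at 9.93 and 9.53, had Jchain below background by both probes.

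Immunoglobulin chains were measured by 7 gene names, of which 6 were higher and 1 lower in spleen, with 0 called and a median difference of 0.66. Taking the brightest probe of each, Igh-VJ558 differed by 1.20, Igl-V1 by 0.82, Igh-4 by 0.68 and Igh-6, the IgM heavy chain, by −0.73. Spleen 4 was the highest of the 8 samples for 6 of the 7, against 10.7% of all probes, and for 15 of the 20 tested immunoglobulin probes with 8 values. Igl-V1, a lambda light chain, had 8.12, 9.49, 7.32 and 10.80 in spleen and 8.55, 7.39, 7.75 and 8.74 in blood. Igh-6 went the other way by its brightest probe alone, with 10.77, 10.67, 11.48 and 11.29 in spleen and 11.80, 11.73, 11.47 and 12.15 in blood. A dimmer Igh-6 probe, which was not tested, had 7.70, 9.18, 6.55 and 8.96 in spleen and 6.12, 6.26, 6.25 and 6.19 in blood. The remaining Igh-6 probe overlapped, with 10.33, 9.23, 10.16 and 9.65 in spleen and 9.72, 9.73, 9.63 and 10.18 in blood. Another Igh-VJ558 probe, singled out after its values were seen, had 7.86, 13.84, 10.37 and 14.78 in spleen and 7.92, 7.09, 8.21 and 7.62 in blood. Immunoglobulin genes share near-identical sequence, so which chain a probe reads is uncertain.

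Plasma cell genes were mixed: of 8 on the array 6 could be tested, with 4 higher and 2 lower in spleen, 0 called and a median difference of 0.01. Jchain is among the 4 higher genes and could be tested through its spleen values alone. Besides Jchain and Pou2af1, the factors Irf4 and Prdm1 differed by −0.31 and −0.14. Prdm1, which drives plasma cell formation, was highest in spleen 4 at 8.33, against 6.81 to 6.85 in the other spleen samples. Blood values of Prdm1 were 6.90 to 7.64. Irf4, in contrast, was lowest in spleen 4 at 8.55, against 8.79 to 10.92 in the other samples. Xbp1 was highest in spleen 2 at 13.19, with 12.89 in spleen 4. Mzb1 stood at 7.51 in spleen 4 and in blood 1, its highest samples. Of the untested plasma cell genes, Sdc1 had 7.62, 9.38 and 6.81 in spleen 1, 2 and 3, with no value in spleen 4. In blood Sdc1 had values in blood 2 and 4 alone, at 7.82 and 7.78. Tnfrsf17 was below background in all 8 samples. Early B progenitor genes, of which 5 of 8 could be tested, had 2 higher and 3 lower with 0 called.

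**Figure D4:**
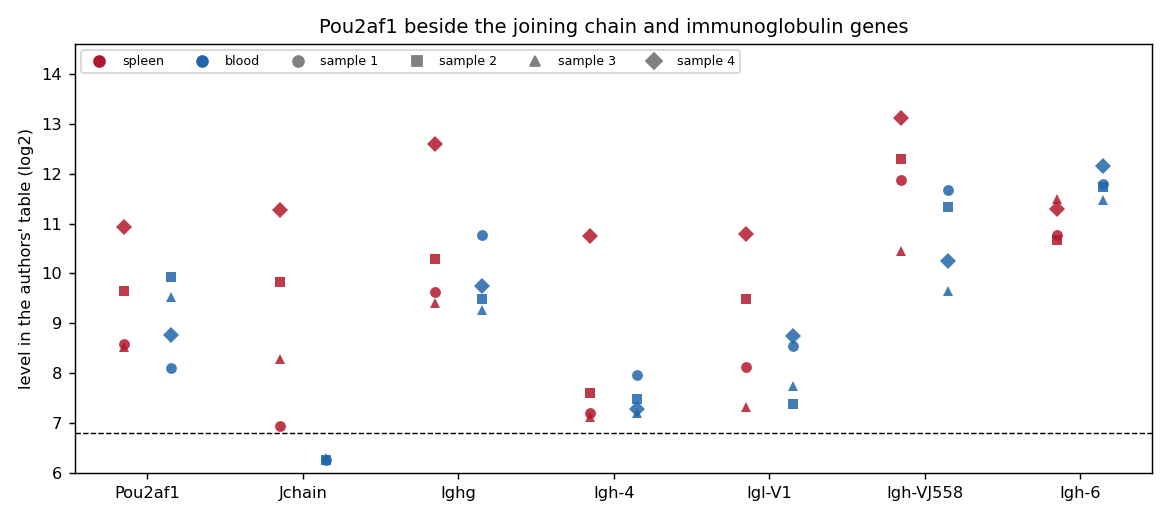
Log2 level of Pou2af1, Jchain and the brightest probes of 5 immunoglobulin genes in each sample, with spleen in red left of blood in blue, a marker shape for each sample number and a dashed line at the background level of 6.8. Spleen 4 is the highest sample for all of these except Igh-6, and Jchain is above the line in all 4 spleen samples and in no blood sample with a value.

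Other B cell restricted genes numbered 26 on the array, of which 20 could be tested, with 12 higher and 8 lower in spleen, 0 called and a median difference of 0.17. The greatest differences were in Cd24a (1.74, SE 0.40, limma adjusted p = 0.47), which myeloid cells also express, in the repressor Bach2 (−1.0), in the scaffold Bank1 (0.72) and in the factor Bcl11a (0.67). Of the 17 with 8 values, spleen 1 and spleen 4 were each the highest of the 8 samples for 4. The median excess was 0.40 in spleen 1, with 5 genes at 1 log2 unit or more, and 0.34 in spleen 4, with 3 such genes. The list thus did not single out spleen 4, and the following pair was chosen after its values were seen. Tnfrsf13c, the receptor for the survival factor BAFF, had 9.01 in spleen 4, against 6.89 to 7.28 in the other 7 samples. Pax5, which keeps B cell identity, had 7.76, 7.95, 7.06 and 9.07 in spleen and 7.96, 7.61, 7.03 and 8.29 in blood. Both were highest in spleen 4.

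Genes of antigen receptor signalling that monocytes also use had list medians of 11.54 to 11.87 in spleen and 11.11 to 11.84 in blood. Of these 15 genes 7 were higher and 8 lower in spleen, with 0 called. The greatest differences were in the tetraspanin Cd81 (1.56, limma adjusted p = 0.68), the kinases Syk (−0.62) and Btk (−0.57) and the adaptor Grb2 (0.55). No sample was the highest for most of the tested T cell genes. Of the 12 with 8 values, spleen 3 was the highest of the 8 samples for 5, against 13.1% of all probes. Spleen 4 was so for 2, against 10.7%, and the median excess in spleen 4 was −0.0041. Of the untested T cell genes, Cd3d and Tcra were highest in spleen 4, at 9.08 and 8.11. In the other samples they had 6.27 to 6.94 and 6.42 to 6.89. Thy1 was above background in spleen 3 alone, at 7.17, and Cd28 and Lck in no sample. Of 14 tested of 19 on the array 10 were higher and 4 lower in spleen, with 0 called, and the greatest differences were in Cd3e (1.0), Tcf7 (0.80), Cd2 (0.63) and Tcrb-V13 (0.50). The sample medians of the tested T cell genes were 7.82 to 8.52 in spleen and 7.63 to 7.97 in blood. The 8 tested neutrophil genes had sample medians of 10.27 to 11.13 in spleen and 6.77 to 9.30 in blood, with 7 higher in spleen and 0 called. The part of these other cells in the values of the B cell genes was not tested.

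Promoters were at hand in RefSeq for 6 of the 9 genes, as 7 windows of 250 bases before to 50 after a start on GRCm38.p6. The octamer ATTTGCAT, searched on both strands, was found in 1 of the 7 windows, that of Blnk, and in 1.74% of all 32851 windows. The palindromic motif that Ebf1 binds, searched in the same way, was found in 1 of the 7, that of Cd22, and in 0.904% of all windows.

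The scanner files labelled blood 1, 2 and 3 gave another picture of these genes. Their rank correlations with their own columns of the table were 0.842, 0.852 and 0.872, while those of the other 5 files were at 1.0. Signals were put on a log2 scale with the 75th percentile of each array at 0. In these 3 files 10 of the 13 member probes were above all 5 other files, against 5.54% of 35123 probes. The differences of medians had a median of 4.2 over the 13 probes and 0.15 over all probes. As the files do not match the table, whose cells they hold cannot be settled here. The main test between tissues did not use them. Fits that took them as blood are given only as alternatives, and no verdict on the tissues is drawn from those.

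Cd79a had 0.48, −0.16 and 2.73 in the 3 files, against −3.57, −3.67, −3.76, −2.78 and −3.30 in those of spleen 1 to 4 and blood 4. Cd79b had 5.17, 3.47 and 5.23, against 1.26, 1.09, 0.03, 1.20 and 0.66 in the same files. Ms4a1 probe 1 had 3.01, 1.75 and 4.54, against −2.89, −4.0, −1.55, −2.82 and −2.01. The receptor chains and CD20 were thus separated in every file, and so were both Cd22 probes, Ms4a1 probe 2, Blk and Blnk. Pou2af1 had 5.78, 4.26 and 6.21, against −0.66, 0.73, −0.71, 1.89 and −0.39. Ebf1 probe 1 had −2.52, −5.79 and 0.36, against −6.71, −2.36, −5.85, −6.84 and −7.00. Ebf1 was well above background in the files of blood 1 and 3 by both probes, and among the other 5 files it was so in 1 by probe 1 and in none by probe 2. Ebf1 probe 2 is among the 10 separated probes, although the file of blood 2 had it at −6.55 and not well above background. Both Cd72 probes overlapped, with −0.16, 1.1 and −0.93 for probe 1 against −1.08, −2.53, −1.65, −0.51 and −0.91.

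Most of the members were thus high together in these 3 files. Of 26 other B cell restricted genes 13 were above all 5 other files and 0 below, and of the 7 immunoglobulin genes 4 were above. Monocyte genes went the other way, with 9 of 13 below all 5 other files and a median difference of −1.50, against 4.68% of all probes below. Neutrophil genes went further that way, with 6 of 10 below and a median difference of −8.23. Genes of other cells were above as well: 4 of 11 NK cell genes, 4 of 19 T cell genes, 4 of 7 MHC class II genes, and 3 of 9 and 3 of 11 genes of conventional and plasmacytoid dendritic cells. The part of these cells in the values of the members was not tested. Within a slide the separation held: on slide 1 the file labelled blood 1 was above that of spleen 3 in 12 of 13 member probes (blood minus spleen, median 3.88). On slide 3 the files labelled blood 2 and 3 were on average above that of spleen 1 in 13 of 13 (median 3.84). On slide 2, where the file of blood 4 matches the table, the file of spleen 4 was below that of blood 4 in 5 of 13 (blood minus spleen, median −0.40).

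**Figure D5:**
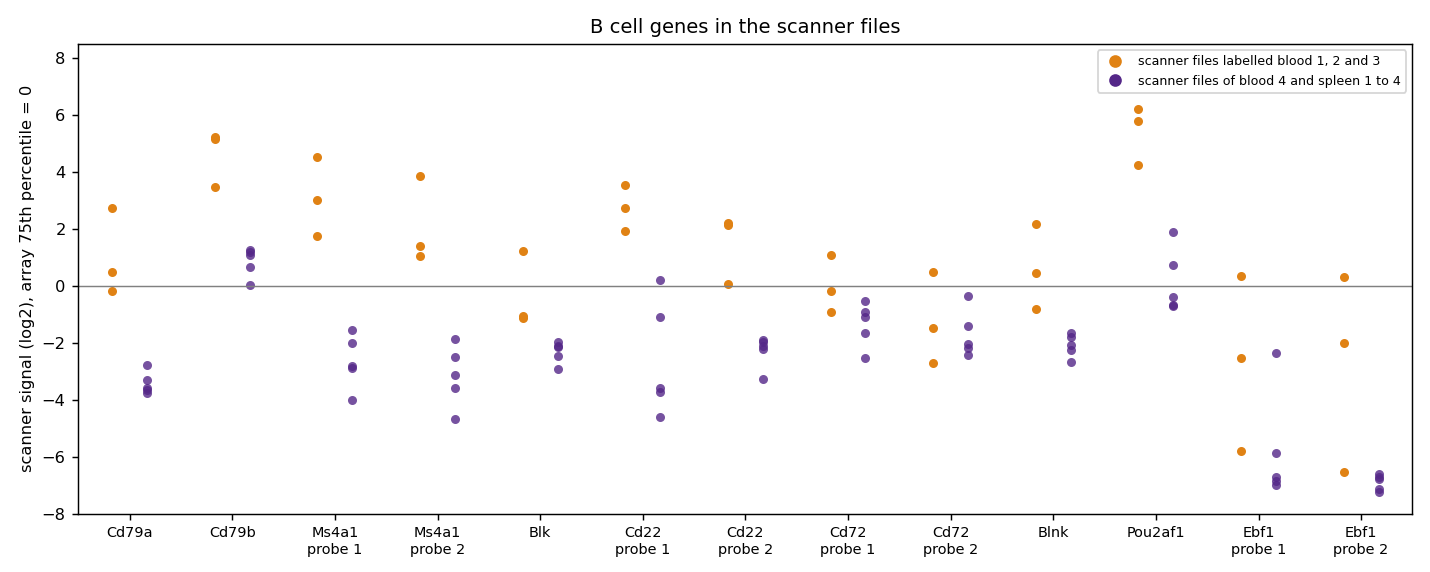
Scanner signal of each of the 13 probes on a log2 scale with the array's 75th percentile at 0, for the 3 files labelled blood 1, 2 and 3 in orange and the 5 files of spleen 1 to 4 and blood 4 in purple to their right. The orange points lie above all purple points for 10 of the 13 probes, the exceptions being both Cd72 probes and Ebf1 probe 1.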

How the data were processed

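The deposited table holds log2 values of the authors, and all 8 columns have a median of 7.31. How they were normalised is not given in the sources used here. The submitters' processing notes name limma without a version. Scanner files hold intensity values per spot from Agilent Feature Extraction 9.5.1.1, per the file headers. In the 5 files that match their columns, 98.1% to 99.8% of empty cells of the table were spots flagged as background outliers.

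Probes at or above 6.8 on at least 4 of 8 arrays with at least 3 values per tissue were fitted with limma 3.58.1 in R 4.3.3 (lmFit and eBayes, tissue only, Benjamini-Hochberg adjustment, threshold 0.05), and the fit was tested on simulated data. Differences are spleen minus blood. With 4 arrays per tissue, the number of arrays limits the precision. Samples came from separate mice within a tissue, per the design text, and p-values measure the spread between them. Scanner signals were scaled to each array's 75th percentile. Alternatives were the replicate number as a block, array weights, variance moderation, the filter, 1 value per gene, the scanner files and leaving out each sample.

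All members and all their probes are named. From each list, up to 4 genes with the largest absolute difference are named, with others said to be chosen after their values were seen. The members and the lists were chosen with earlier results of these data known. Symbols come from the scanner files, and 22944 probes were named through RefSeq accessions.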

Additional observations from a re-analysis of the deposited data

Results flagged for a closer look

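Ebf1 probe 1 stood apart in spleen 2, at 7.51 against 6.32 to 6.38 in the other 3 spleen samples. Ebf1 probe 2 stood apart in blood 2, at 7.45 against 6.24 to 6.35 in the other 3 blood samples. Each was a gap of that size relative to the range of its group that Dixon's 95% critical value marks as far from the rest. Of 23 groups of 4 values examined, 2 were marked, and chance marks about 1 in 20. In both marked groups the other 3 values lay below background, where levels carry no order, so that rate cannot be applied to them. In spleen 2 the other Ebf1 probe was at 6.21, and in blood 2 the other probe was at 6.42, both below background.

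The scanner files labelled blood 1, 2 and 3, which the main comparison between tissues does not use, had 10 of the 13 member probes above all 5 other files.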

How the results depend on the processing

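No member probe was called in any setting tried, and of 207 recomputed differences of single probes 166 kept their direction and 41 reversed. The median member difference of 0.02 was −0.15 to 0.22 with 1 sample left out and 0.42 on the slide that holds spleen 4 and blood 4. From all 8 scanner files, 3 of which hold other arrays, it was −2.92 at the 75th percentile, −2.83 at the median and −2.52 after normexp. At those 3 scalings Cd79b was −2.74, −2.65 and −2.65, Ms4a1 probe 2 was −3.72, −3.64 and −3.00, Blk was −1.66, −1.57 and −1.25, Cd22 probe 1 was −2.96, −2.87 and −2.71, Cd72 probe 1 was −1.22, −1.13 and −0.90, Cd72 probe 2 was −0.17, −0.077 and −0.098, and Pou2af1 was −3.65, −3.56 and −3.53. Direction alone was counted, so a probe that kept it could still shift far. In all 8 scanner files at the 75th percentile Ms4a1 probe 1 was −4.64, against −0.21 in the main fit. Cd22 probe 2 was −2.92 there, against −0.23, and Blnk was −2.24, against −0.14. With the 5 matching columns Blk was −0.18 and Cd72 probe 1 −0.34, and with the 5 matching files −0.43 and −0.54. Array weights gave Blk −0.0058. With 1 sample left out Blk ranged from −0.15 to 0.15, Cd22 probe 1 from −0.47 to 0.33, Cd72 probe 1 from −0.011 to 0.48, Ms4a1 probe 2 from −0.14 to 0.23 and Pou2af1 from −0.15, without spleen 4, to 0.65. The median excess of spleen 4, 0.21, was 0.66 over the tested probes with all 4 spleen values (added after seeing the data), 0.58 with the brightest probe of a gene, 0.65 with the mean over its probes, 0.47 in the 5 matching columns, 0.44 in all scanner files and 0.66 in the 5 matching files. The count of member probes above in the 3 other files, 10, was 9 with the median and 10 with normexp, both added after seeing the data.

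Over all probes 0 were called, against 1 with the replicate number as a fixed block, 7 with it as a random block, 9 where the variance prior was robust and followed intensity, 7 with probes of a gene averaged, 7 at a background of 7.1, 5 and 7 in scanner files scaled to the 75th percentile and to the median, 5 after normexp, and 0 to 2 with 1 sample left out. The block changed no member's call. Deviations of samples with the same number correlated at 0.07 to 0.12 (4 pairs), and those with other numbers at −0.10 to 0.03, so every sample was most like its own number. This is a hint from the data that the numbers mark mice: the design text says that both tissues came from each mouse, but no label ties a number to a mouse and not every pair was over 0.1, so the fit without the block was kept. The slide as a block was not run, since the slides of 3 columns are not settled. The causes were not tested. Levels below 6.8 carry no order.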

Other observations

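The genes whose pattern over the 8 samples was most like that of the B cell genes were searched among 11853 genes, against the mean deviation of 6 member genes with 8 values (Ms4a1, Blk, Cd22, Cd72, Blnk and Pou2af1). That mean was 0.64 in spleen 4, and between −0.37 and 0.16 in the other 7 samples. The 10 most alike were Zfp874a (r = 0.95), an unnamed probe (0.93), Scml4 (0.93), the transcript TC1498661 (0.93), ENSMUST00000101328 (0.92), 2310035P21Rik (0.91), Mad2l2 (0.90), AK083437 (0.90), Cxcl12 (0.90) and Tctn1 (0.90). All 10 were highest in spleen 4, which their choice by a profile highest there favours. Without that sample the correlations of these 10 genes, picked over all 8 samples, were 0.53 to 0.85. The array describes ENSMUST00000101328 as similar to an immunoglobulin kappa chain, and none of the 10 is on the lists of cell type genes used here. These are correlations over 8 columns whose normalisation is not given, and they are given as a description.

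Cxcl12, a chemokine made by stromal cells, had 7.62, 7.30, 6.93 and 9.65 in spleen. Of 12 tested T cell genes with 8 values, 2 were highest in spleen 4, Cd3g at 8.82 and Cd6 at 9.63, and 5 in spleen 3, among them Cd3e at 10.75. These were named after their values were seen.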
